A study of Mus musculus with 8 samples.

Results

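The genes described here are 35 mouse genes that are subject to genomic imprinting and are mostly known from embryonic growth, chosen by symbol from the 23337 genes of the deposited table. All 35 symbols were in the table, and the 30 whose normalised count averaged 10 or more over the 8 libraries were tested. RNA came from kidneys of E13.5 mouse embryos (midgestation) on a mixed C57BL/6 background. The 4 control libraries, numbered 1 to 4, were from Smo(flox/+) embryos, which carry a floxed and a wild type allele of the hedgehog signal transducer Smo and, in their genotype label, no Cre. The cross was of Foxd1Cre carriers heterozygous for the null allele with homozygous floxed mice. The 4 mutant libraries were from Foxd1Cre;Smo(flox/-) embryos, in which Cre driven from Foxd1 in the renal stromal lineage acts on the floxed allele while the other allele is null in every cell. Each embryo therefore had at least 1 floxed allele. Mutants differed from controls in Foxd1Cre, in the stromal loss of Smo and in the germline null allele, which cannot be told apart. The genotype labels do not say whether Foxd1Cre changes a copy of Foxd1 itself. The series compares mutant with control kidneys.

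In genomic imprinting a gene is transcribed from the copy inherited from one parent, and the choice is held by DNA methylation laid down in the germ line at imprinting control regions. Imprinted genes lie in clusters that share such a region, and many of them act on fetal and placental growth, on stem and progenitor cells, or on the supply of growth factors. In the embryo a set that includes H19, Dlk1, Meg3, Plagl1, Peg3, Mest and Grb10 is known to be high in mesenchymal and muscle precursor tissues and to be switched down after birth. Among the genes here, 20 are known as paternally expressed, 12 as maternally expressed, in some cases in the placenta only, and 3 (Grb10, Ube3a and Gnas) depend on tissue or promoter. The libraries do not separate the parental alleles, so every value is the sum of both.

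The start regions of 4 members that carry the results below are shown first, because imprinting acts through CpG methylation. Their CpG counts ran from 0 to 26, and CpG content was not compared between clusters. Each window runs from 250 bases before to 50 bases after the start in RefSeq GRCm38.p6, is written 5′ to 3′ along the gene and has its CpG dinucleotides in capitals.
Peg3, chr7:6730370-6730669, minus strand, 13 CpG: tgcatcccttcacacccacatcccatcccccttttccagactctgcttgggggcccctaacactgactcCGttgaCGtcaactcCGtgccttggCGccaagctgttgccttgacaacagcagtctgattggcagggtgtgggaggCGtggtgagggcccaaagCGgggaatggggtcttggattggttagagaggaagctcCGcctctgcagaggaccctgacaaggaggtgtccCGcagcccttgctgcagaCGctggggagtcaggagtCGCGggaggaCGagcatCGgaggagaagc
Plagl1, chr10:13090582-13090881, plus strand, 26 CpG: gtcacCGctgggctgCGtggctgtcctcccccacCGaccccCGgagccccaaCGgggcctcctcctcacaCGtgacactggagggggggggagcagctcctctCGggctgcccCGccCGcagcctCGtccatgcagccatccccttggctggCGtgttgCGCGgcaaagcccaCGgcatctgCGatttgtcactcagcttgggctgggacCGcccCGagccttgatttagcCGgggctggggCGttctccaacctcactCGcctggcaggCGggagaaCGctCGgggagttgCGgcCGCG
Meg3, chr12:109540746-109541045, plus strand, 13 CpG: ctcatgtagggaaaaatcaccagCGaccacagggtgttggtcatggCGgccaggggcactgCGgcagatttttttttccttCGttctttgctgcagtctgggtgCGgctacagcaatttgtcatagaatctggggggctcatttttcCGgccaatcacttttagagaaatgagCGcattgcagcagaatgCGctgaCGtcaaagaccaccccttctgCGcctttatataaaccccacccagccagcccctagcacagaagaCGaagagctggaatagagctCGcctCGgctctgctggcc
Rian, chr12:109603695-109603994, plus strand, 0 CpG: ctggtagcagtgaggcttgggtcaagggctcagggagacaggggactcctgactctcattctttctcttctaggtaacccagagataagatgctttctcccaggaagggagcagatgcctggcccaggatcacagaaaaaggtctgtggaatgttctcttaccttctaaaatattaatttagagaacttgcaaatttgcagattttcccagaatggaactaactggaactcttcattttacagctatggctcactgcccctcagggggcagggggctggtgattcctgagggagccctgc

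Windows of 29 of the 35 genes were used, 43 windows in all, with 0 to 48 CpG and a median of 15.0. The median was 7.0 over 32817 windows of the same length across the genome. The 43 windows include none of H19, Rtl1, Peg10, Sgce, Nespas or Impact, so the comparisons here do not cover these genes. The windows of Peg3 and Usp29 overlap head to head by 263 bases on opposite strands, so the sequence shown for Peg3 holds most of the Usp29 window too. The TGCCGC hexamer that ZFP57 recognises when methylated was present on either strand in 11 of the 43 windows (25.6%, from 10 genes), including those of Plagl1 and Meg3, and in 11.6% of all windows. The letters GCCATNTT, a core of YY1 sites, were in 2 of the 43 windows (4.65%, in Mkrn3 and Ube3a) and in 6.04% of all windows. The GLI core GACCACCCA was in 0 of the 43 windows and in 0.253% of all windows. No motif is contained in another, and a match or its lack is only a description of these windows.

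Several members are host transcripts or neighbours of microRNA genes, which poly(A) libraries do not measure. RefSeq places 10 hairpins within Mirg, 3 within Rian and 1 each within Meg3, H19 and Mest on the strand of the gene, and 13 within the span of Rtl1 on the opposite strand. One mature sequence is shown from within the span of each of 5 members, on the opposite strand for Rtl1. The seed (bases 2 to 8) is in capitals. These 5 sequences have 5 different seeds.
mmu-miR-675-5p, in H19: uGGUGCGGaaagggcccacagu
mmu-miR-127-3p, antisense within Rtl1: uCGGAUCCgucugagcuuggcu
mmu-miR-370-3p, in Rian: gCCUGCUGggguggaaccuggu
mmu-miR-410-3p, in Mirg: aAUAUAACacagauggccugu
mmu-miR-335-5p, in Mest: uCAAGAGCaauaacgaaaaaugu

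The libraries held 10288191 to 13494079 reads in genes. Levels are normalised read counts (reads divided by 1 size factor per library), where 1 read is worth 0.8506 to 1.12. Smo levels were 2152 to 2294 for the controls and 509 to 553 for the mutants, so each library matched its label. The 10 kidney markers were all present and summed to at least 10040 everywhere, with Pax2 higher (0.32 on the log2 scale) and Foxd1 lower (-1.29) in the mutants (limma adjusted p = 0.0332 and 0.0251). Over the 8 libraries the sums were 75.6 to 147 for 8 adrenal genes and 6.44 to 13.4 for 4 gonad genes. They were 428 to 481 for 8 neural genes and 845 to 1377 for 4 cartilage genes. For 5 endothelial genes they were 3793 to 5084 and for 4 red cell genes 5723 to 12080. The 5 macrophage genes summed to 287 to 495 in controls and to 189 to 330 in mutants. Only 1 adrenal, 0 gonad, 5 neural and 2 cartilage genes were high enough to test. In these lists none of the tested genes was called. Skeletal muscle RNA differed between libraries. The 12 muscle genes, of which 0 were called and 0 were at 0 in all libraries, summed to 3708 for control 2, to 2078 for mutant 2, to 693 for control 1 and to 180.5 to 347 for the rest. Liver genes summed to 749 in control 1 and to no more than 152 elsewhere. In whole kidneys, fewer cells of a type and less RNA per cell cannot be told apart. Whether each sample is another embryo is not stated in the labels, and p-values cover only the spread between these samples.

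The members ranged over more than 4 orders of magnitude in level per kilobase of exon. Exon length is the union of all annotated exons of a gene and may exceed the transcript present. The order below therefore depends on the annotation, and overlaps cover only the spread between libraries. H19, a maternally expressed long noncoding RNA that shares enhancers with Igf2, was at 18522 to 23334 normalised counts per kb in the 8 libraries. Mest, a paternally expressed gene for a hydrolase-like membrane protein, followed at 5591 to 6992 per kb, and Grb10, an adaptor that restrains insulin and IGF receptor signalling, at 1972 to 2140 per kb. These 3 did not overlap each other or any other member over the 8 libraries. Gnas, which encodes the stimulatory G protein alpha subunit (mean 1181 per kb), Nnat, which encodes the proteolipid neuronatin (954), Plagl1 (825), Peg3 (706) and Cd81, a tetraspanin gene (583), each overlapped the next in this order. Further gaps between neighbours in this order lay between Cd81 and Peg10 (473), and others between Asb4 (200.5) and Peg12 (166), between Zdbf2 (62.8) and Airn (39.8) and between Sgce (20.9) and Phlda2 (8.63).

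**Figure D1:**
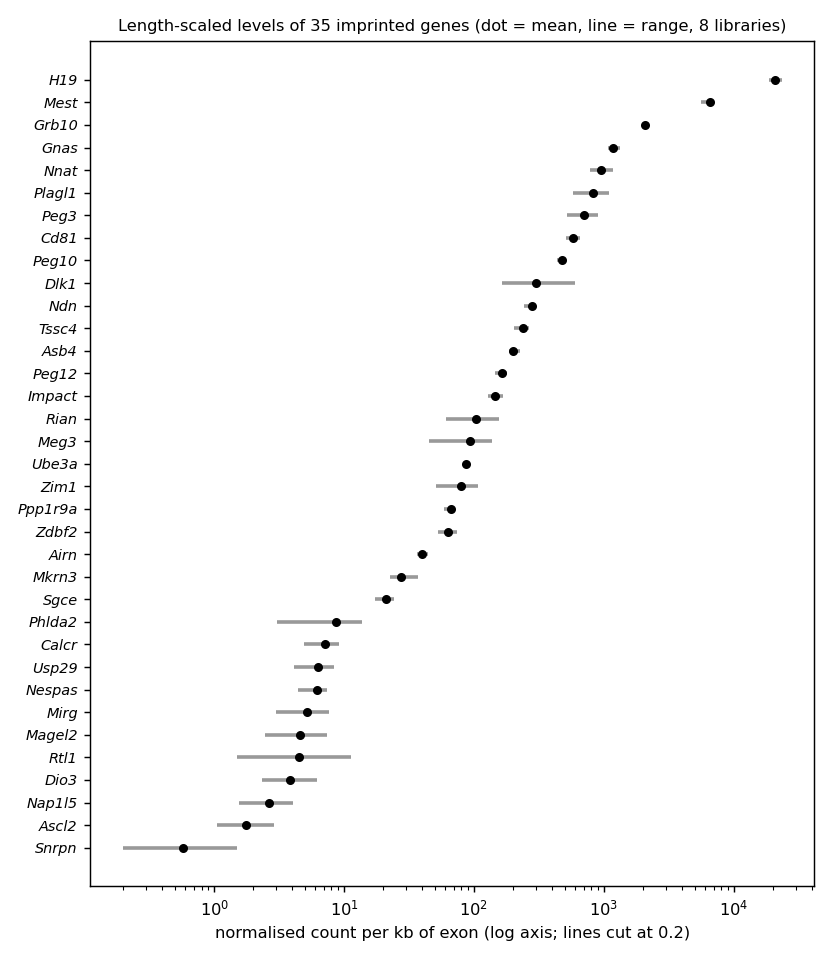
Normalised count per kb of exon for each of the 35 genes on a log axis, with the dot at the mean and the line from the lowest to the highest of the 8 libraries. H19 and Mest stand at the top with means of 20860 and 6560 per kb, and Snrpn at the bottom with 0.576 per kb.

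A group of 5 members was too low to test. Snrpn, a spliceosomal protein gene of the Prader-Willi cluster, had 0 to 3 reads per library, and was listed at 0 in control 2 and mutant 2. Of its exon length, 27.3% is shared with other genes on the same strand, among them Snurf, and such reads cannot be assigned to either gene. Ascl2, a transcription factor of the trophoblast, had 2 to 5 reads, and Nap1l5, a nucleosome assembly protein gene, 3 to 7 reads. Dio3, which inactivates thyroid hormone, had 5 to 13 reads and Phlda2, a growth-restraining placental gene, 4 to 16. All 5 overlapped between the groups.

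No member passed the test of mutant against control kidneys. By limma with Benjamini-Hochberg adjustment over 13692 genes, 0 of 30 tested members were called, with a smallest adjusted p of 0.0635, where 0.570% of all tested genes were called (0.446% lower and 0.124% higher). At an unadjusted p under 0.05, 8 members were lower and 1 was higher, against 5.17% and 3.53% of all genes (8.70% in either direction). edgeR called 0 members (0.577% of all genes, 0.453% lower) with 10 at an unadjusted p under 0.05, and DESeq2 called 1, Plagl1 as lower (1.56% of all genes, 1.17% lower), with 9. The median log2 fold change of the tested members was -0.10 (mutant over control, from log2 of the count plus 1), beside 0.0037 for all tested genes. A negative log2 fold change was found for 24 of the 30, beside 48.1% of all genes. The groups of libraries did not overlap for Rian and Plagl1, which were lower in the mutants (3.00% of all genes), and for Tssc4, which was higher (2.31%), against 5.31% of all genes in either direction.

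**Figure D2:**
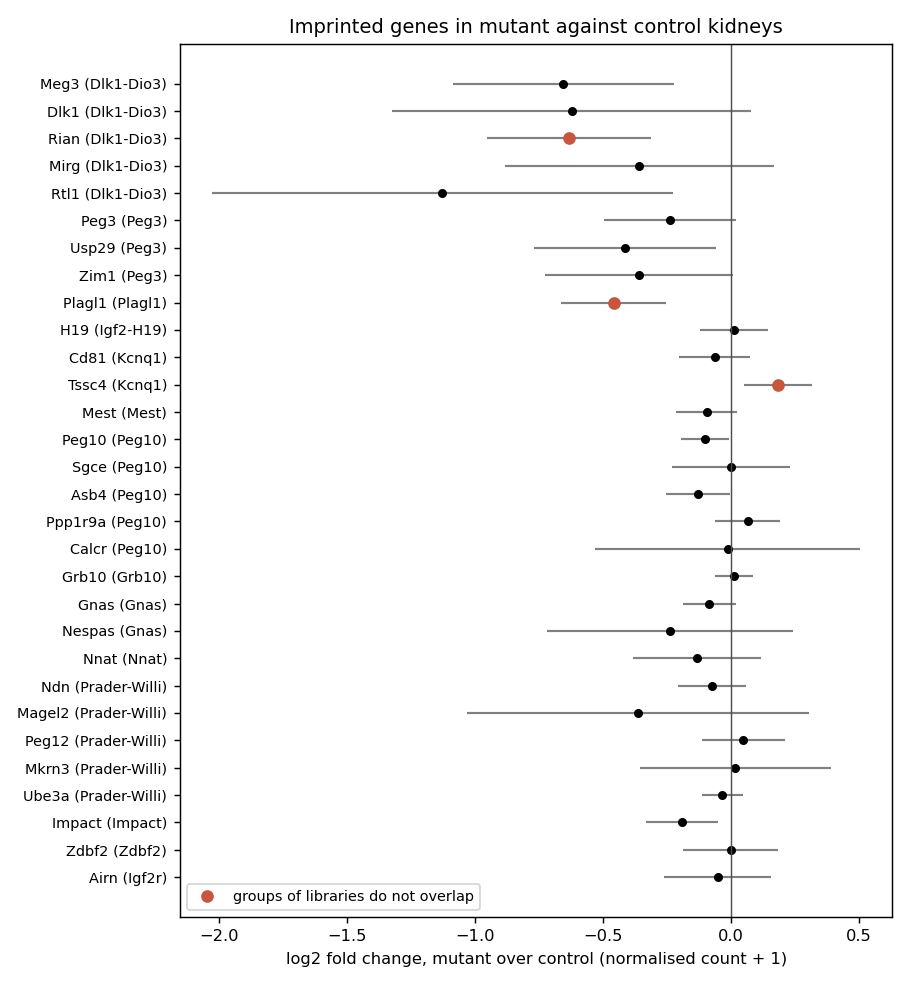
Log2 fold change of mutant over control with its 95% interval from limma for the 30 tested members, with the cluster in brackets. Red dots mark Rian, Plagl1 and Tssc4, whose control and mutant libraries do not overlap, and the 5 members of the Dlk1-Dio3 cluster have the estimates from -1.13 to -0.36 at the top.

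The Dlk1-Dio3 cluster on chromosome 12 is transcribed from the paternal copy as Dlk1, Rtl1 and Dio3 and from the maternal copy as the noncoding RNAs Meg3, Rian and Mirg. All 5 tested members had negative log2 fold changes (median -0.63), as had 48.1% of all genes, and 3 were lower at an unadjusted p under 0.05, as were 5.17% of all genes. Without controls 1 and 2 these log2 fold changes were smaller, at -0.0021 for Dlk1, -0.42 for Rtl1, -0.46 for Meg3, -0.45 for Rian and -0.23 for Mirg (limma adjusted p of at least 0.347). Controls 1 and 2 were the highest controls for all of these genes but Mirg, so smaller values there follow from leaving them out. The 5 genes were spread more between libraries of a group than most members. Their within-group SD on the log2 scale was 0.277 to 0.720, beside a median of 0.157 for the tested members and 0.110 for all tested genes.

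Rian (chr12:109603945-109661716, plus strand), the host of small nucleolar RNAs and microRNAs, was at 2334, 2854, 2077 and 1932 in controls 1 to 4 and at 1120.1, 1808, 1377 and 1648 in mutants 1 to 4. Mutant 2, the highest mutant, lay below control 4, the lowest control. The means were 2299 ± 405 and 1488 ± 303 (SD, n = 4), a log2 fold change of -0.63 (SE 0.146, limma adjusted p = 0.108). Without control 4 it passed (-0.71, limma adjusted p = 0.0421), as it did in no other fit that left out 1 library (limma adjusted p up to 0.307).

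Meg3 (chr12:109540996-109571729, plus strand), a noncoding RNA with growth-restraining activity in cultured cells, was at 2151, 2477, 1679 and 1847 in the controls and at 813, 1699.6, 1257 and 1545 in the mutants. Control 3 and mutant 2 overlapped by a narrow margin, and mutant 1 was the lowest of all. The means were 2038 ± 352 and 1329 ± 389.9, with a log2 fold change of -0.66 (SE 0.197, limma adjusted p = 0.249). The 3 noncoding RNAs are thought to be read from one start region as a chain, and the ratio of Rian to Meg3 stayed between 1.05 and 1.38 in all 8 libraries. It ranged from 1.05 to 1.24 in the controls and from 1.06 to 1.38 in the mutants, with mutant 1 the highest. The opposite-strand gene Gm26906 shares 6.8% of the exon length of Meg3.

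Mirg, the last of these transcripts, was at 37.4, 55.8, 39.7 and 36.7 in the controls and at 22.0, 44.7, 28.0 and 39.7 in the mutants. Its groups overlapped, with a log2 fold change of -0.36 (limma adjusted p = 0.780) that was -0.18 without mutant 1 and -0.22 without control 2.

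Dlk1 (chr12:109452485-109463336, plus strand), a membrane-bound Notch-like protein of progenitor cells, was at 2571, 3371, 1439.7 and 1075 in the controls and at 933, 1690.0, 985 and 1533 in the mutants. Controls 1 and 2 were above every other library, and controls 3 and 4 lay within the range of the mutants. The log2 fold change was -0.62 with a 95% interval from -1.33 to 0.08 (limma adjusted p = 0.647). It was -0.35 without control 2 and -0.0021 without controls 1 and 2. Leaving out the highest controls must make a negative estimate smaller in size, so these values do not test it. Rtl1, a retrotransposon-derived gene needed in fetal capillaries and muscle, was at 48.5, 71.3, 23.3 and 19.7 in the controls and at 9.55, 24.5, 13.4 and 19.3 in the mutants. It showed the same order of libraries as Dlk1 in the controls, with a log2 fold change of -1.13 (SE 0.410, limma adjusted p = 0.399), which was -0.42 without controls 1 and 2. Of the exon length of Rtl1, 8.1% is shared with transcripts of the opposite strand. The deposited counts are named 'Unstr', which may stand for counting without strand, so part of the Rtl1 reads may belong to these transcripts.

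Control 2 was the highest control and mutant 2 the highest mutant for all 5 tested members of this cluster, and these were the libraries with the most muscle RNA, followed by control 1. With a muscle score as a covariate, the log2 fold changes were -0.42 for Dlk1, -0.57 for Meg3, -0.55 for Rian, -0.26 for Mirg and -0.90 for Rtl1. In that fit Rian passed (limma adjusted p = 0.0205). Without both libraries numbered 2 they were -0.50, -0.69, -0.63, -0.37 and -1.002 in the same order, and none passed (limma adjusted p = 0.177 for Rian). The value for Rian was -0.63 with and without them, but -0.45 without controls 1 and 2.

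**Figure D3:**
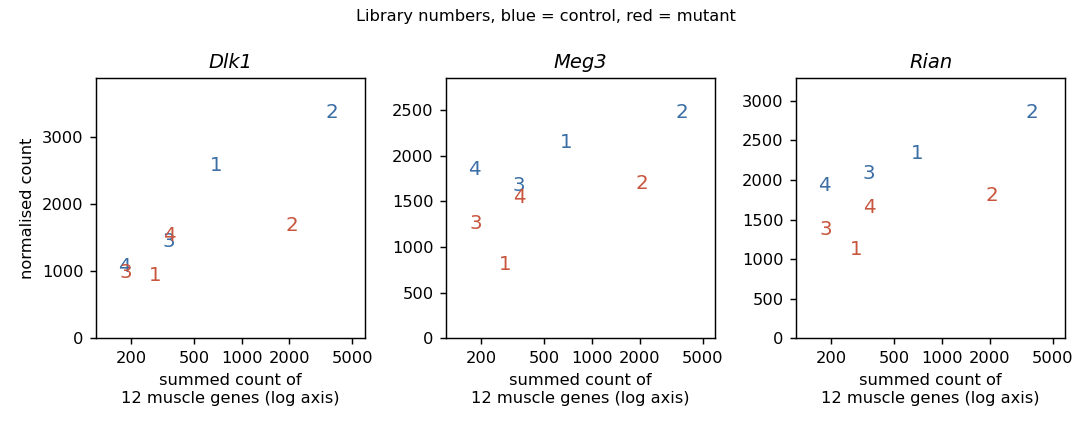
Normalised count of Dlk1, Meg3 and Rian in each library (vertical axis) against the summed normalised count of 12 skeletal muscle genes (log axis), with the library number as the symbol, controls in blue and mutants in red. Control 2 (3708) and mutant 2 (2078) are farthest right and highest within their groups, and for Rian every mutant lies below every control.

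Plagl1 (chr10:13090832-13131694, plus strand) encodes a zinc finger transcription factor that is known to act on other imprinted genes, among them Igf2 and H19. It was at 7285, 8554, 7700.1 and 6350.0 in the controls and at 4552, 5896, 5550.3 and 5741 in the mutants. All 4 mutants lay below all 4 controls, and mutant 1 was the lowest. The means were 7472 ± 916 and 5435 ± 605, so mutants were at 72.7% of the control level, with a log2 fold change of -0.46 (SE 0.093, limma adjusted p = 0.0635).

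Of the members, Plagl1 was the closest to the threshold and its call differed between settings. It passed by DESeq2 (adjusted p = 0.0122), with the muscle score as a covariate (limma adjusted p = 0.0259) and without control 4 (-0.53, limma adjusted p = 0.0114). It did not pass by edgeR (adjusted p = 0.0668) or with any other library left out (limma adjusted p up to 0.205). Without both libraries numbered 2 its log2 fold change was -0.43 (limma adjusted p = 0.236). The authors' deposited table gives it an adjusted p of 0.0362, and it was the only member under 0.05 there. H19 was at 52571, 57403, 49268 and 45565 in the controls and at 48906, 52779.8, 51567 and 52449.8 in the mutants, with overlapping groups. Its highest and lowest libraries per group (controls 2 and 4, mutants 2 and 1) were those of Plagl1, Dlk1, Rian, Mirg, Rtl1 and Magel2. Its log2 fold change was 0.01 with a 95% interval from -0.12 to 0.14 (limma adjusted p = 0.980), and its sign turned in 3 of the fits that left out 1 library.

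The Peg3 cluster on proximal chromosome 7 holds Peg3 (chr7:6703892-6730462, minus strand), a zinc finger gene of growth and maternal behaviour, Usp29, a ubiquitin protease gene that starts back to back with it, and Zim1, a maternally expressed zinc finger gene. All 3 had negative log2 fold changes, as had 48.1% of all genes. For 1 of the 3 the unadjusted limma p was under 0.05, beside 5.17% of all genes that were lower at that threshold. Peg3 was at 8952, 9252, 10419 and 12029.6 in the controls and at 6916, 8072, 9282 and 10303 in the mutants. The groups overlapped, with control 4 and mutant 4 the highest and control 1 and mutant 1 the lowest of their groups. Its log2 fold change was -0.24 (SE 0.118, limma adjusted p = 0.626), and was -0.14 without mutant 1, -0.16 without control 4 and -0.39 without controls 1 and 2.

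Usp29 was at 103, 133, 137 and 151 in the controls and at 74.5, 91.6, 108 and 121 in the mutants. Its log2 fold change was -0.41 (SE 0.162, limma adjusted p = 0.457), and controls and mutants overlapped only through control 1. Zim3, annotated on the opposite strand, shares 14.3% of the exon length of Usp29. Zim1 was at 644, 674, 686 and 865 in the controls and at 411, 474, 636 and 765 in the mutants, a log2 fold change of -0.36 (SE 0.168, limma adjusted p = 0.589) that was -0.22 without mutant 1.

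The highest and the lowest library of each group were the same for all 3 genes of the cluster, although Zim1 is known to be read from the other parental copy. Control 4 and mutant 4 were highest and control 1 and mutant 1 lowest in each case, as also for Nnat and Impact. Control 4 had the least muscle RNA of all libraries (180.5). Mutant 4 did not have the least of its group, with sums of 285.5, 2078, 184.8 and 346.9 in mutants 1 to 4. Mutant 1 had the lowest value of its group for 17 of the 30 tested members. The ratio of Peg3 to Zim1 lay between 13.47 and 17.03 in all 8 libraries. Foxd1 was likewise highest in control 4 (2039) and mutant 4 (738) and was at 1038 in control 1 and 484 in mutant 1, with mutant 2 the lowest (469). With the muscle score as a covariate the log2 fold changes were -0.28 for Peg3, -0.44 for Usp29 and -0.41 for Zim1, and the part of the Foxd1 differences was not tested.

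**Figure D4:**
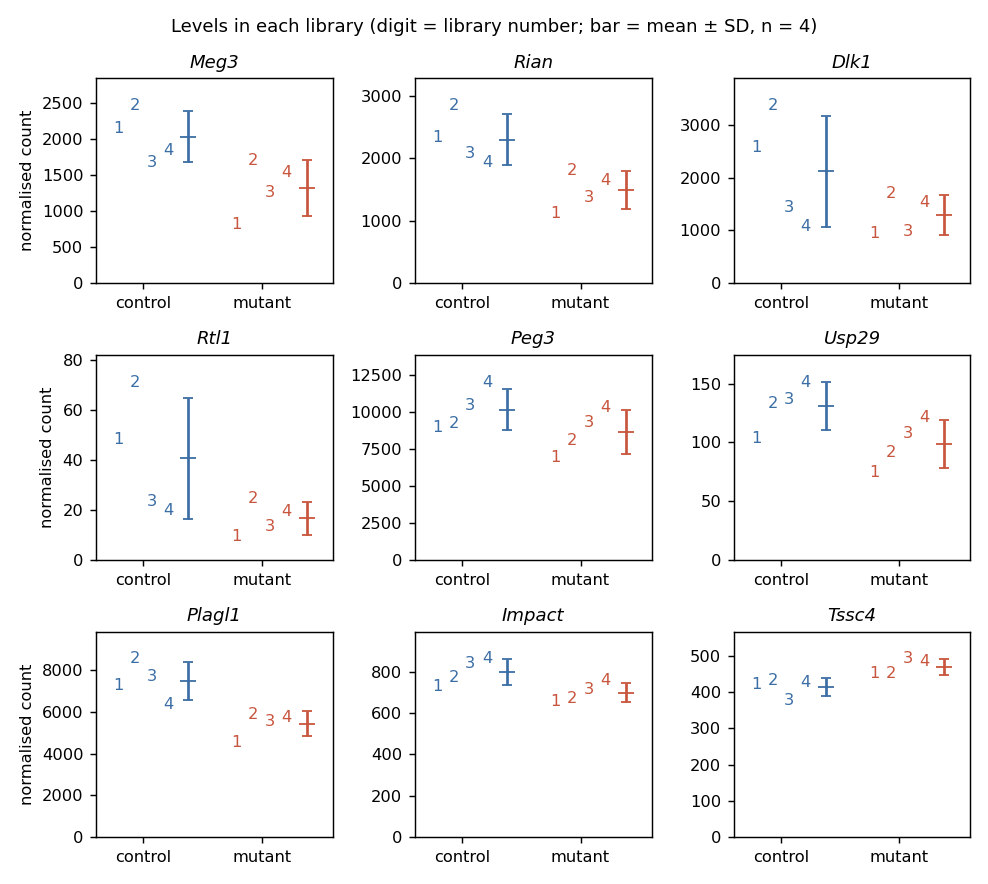
Normalised counts in each library for 9 members, with the library number as the symbol, controls in blue, mutants in red and the mean ± SD (n = 4) beside them, on axes that start at 0. Rian and Plagl1 are lower and Tssc4 is higher in every mutant than in every control, and Meg3, Dlk1, Rtl1, Peg3, Usp29 and Impact overlap.

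The Kcnq1 cluster on distal chromosome 7 is known for genes that are imprinted mainly in the placenta. Tssc4 (chr7:143068416-143071093, plus strand), a spliceosome-associated gene, was at 421, 433, 377 and 426 in the controls and at 453, 450.5, 492 and 485 in the mutants. Every mutant lay above every control, with means of 414 ± 25.4 and 470.1 ± 21.6 and a log2 fold change of 0.18 (SE 0.060, limma adjusted p = 0.313). Trpm5, on the opposite strand, shares 11.9% of its exon length. Cd81, its neighbour, was at 1873, 1814, 1712 and 1481 in the controls and at 1638, 1627, 1596 and 1695 in the mutants, a log2 fold change of -0.06 (limma adjusted p = 0.859).

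The 5 tested genes of the Peg10 cluster and Mest lie on chromosome 6, the chromosome of Smo. Mest (chr6:30733506-30748466, plus strand) lies 0.97 Mb from Smo, and the Peg10 cluster lies 24.3 to 25.97 Mb from it. Mest was at 26652, 26088, 27549 and 26404 in the controls and at 25149, 25702, 22029.9 and 27209.8 in the mutants. The groups overlapped and mutant 3 was the lowest, with a log2 fold change of -0.10 and a 95% interval from -0.22 to 0.02 (limma adjusted p = 0.711). Without mutant 3 it was -0.04. Copg2 shares 23.1% of the exon length of Mest on the opposite strand.

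Peg10, a retrotransposon-derived gene needed in the placenta, was at 3179, 3405, 3139 and 3342 in the controls and at 2935, 2933, 3036 and 3276 in the mutants. Its log2 fold change was -0.10 (SE 0.043, limma adjusted p = 0.515), with mutant 4 inside the control range. Asb4, a maternally expressed SOCS-box gene, was at 885, 738, 851 and 822 in the controls and at 741, 725, 771 and 772 in the mutants, a log2 fold change of -0.13 (SE 0.057, limma adjusted p = 0.551). Log2 fold changes were -0.0004 for Sgce, the epsilon-sarcoglycan gene, 0.06 for Ppp1r9a, the gene of the actin-binding protein neurabin, and -0.01 for Calcr, the calcitonin receptor gene. The adjusted p of these 3 was at least 0.837, and the 95% interval of Calcr ran from -0.53 to 0.50.

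Grb10 had the narrowest 95% interval of the 30 tested members. It was at 18035, 19078, 18828 and 19004 in the controls and at 17923, 19268, 18858 and 19452 in the mutants. Its groups overlapped, and the 95% interval of its log2 fold change ran from -0.06 to 0.08.

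Among the genes of the Prader-Willi cluster on chromosome 7, the MAGE family genes Ndn and Magel2, Peg12, the ring finger gene Mkrn3 and the ubiquitin ligase gene Ube3a were tested, and none had an unadjusted p under 0.05. Ndn was at 1105, 1037, 1039.5 and 1051 in the controls and at 896, 1054, 1104 and 972 in the mutants (log2 fold change -0.08, limma adjusted p = 0.815). Ube3a was at 1721, 1781, 1848 and 1843 in the controls and at 1738, 1795, 1696 and 1796 in the mutants, and its 95% interval ran from -0.11 to 0.05. Magel2 was low, at 16.9 to 34.1 in controls and 11.5 to 27.7 in mutants, with control 2 and mutant 2 highest as in the Dlk1-Dio3 cluster (log2 fold change -0.36, 95% interval -1.03 to 0.31, and -0.17 to -0.57 with 1 library left out). Peg12 (0.05) and Mkrn3 (0.02) had log2 fold changes near 0 and changed sign in some settings. Antisense transcripts share 27.3% of the exon length of Ube3a.

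The other members stand alone or in pairs. Impact, a regulator of the translation factor kinase GCN2, was at 726, 770.1, 837 and 861 in the controls and at 656, 669, 712 and 757 in the mutants. Only control 1 and mutant 4 broke the separation, with a log2 fold change of -0.19 (SE 0.065, limma adjusted p = 0.333). Nnat was at 1659, 1693, 1831 and 2094 in the controls and at 1421, 1505, 1625 and 2139 in the mutants. Mutant 4 was the highest library of all, and the log2 fold change was -0.13 (limma adjusted p = 0.825), from -0.26 without mutant 4 to -0.06 without mutant 1. Gnas was at 13497, 14884, 13275 and 12785 in the controls and at 12822, 13424, 12116 and 12923 in the mutants, a log2 fold change of -0.08 (limma adjusted p = 0.701). Its antisense partner Nespas, which shares 31.4% of its own exon length with Gnas, was at 17.9 to 23.3 in controls and 13.96 to 22.4 in mutants (log2 fold change -0.24, and -0.13 without mutant 4). Without strand their reads cannot be told apart there. Zdbf2, a zinc finger gene active in the hypothalamus, was at 669 to 945 in controls and 762 to 832 in mutants, and Airn, the noncoding RNA that silences Igf2r, at 132 to 159.8 and 131 to 157.

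The members were also grouped by known parental origin, which their choice did not use. Of 17 tested paternally expressed members 15 had a negative log2 fold change (median -0.13), and of 10 maternally expressed members 7 did (median -0.10). Over all genes 48.1% did. Both classes hold members of the Dlk1-Dio3 and Peg3 clusters, which share their highest libraries, so the members counted are not separate observations. The difference between these classes was not tested.

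**Figure D5:**
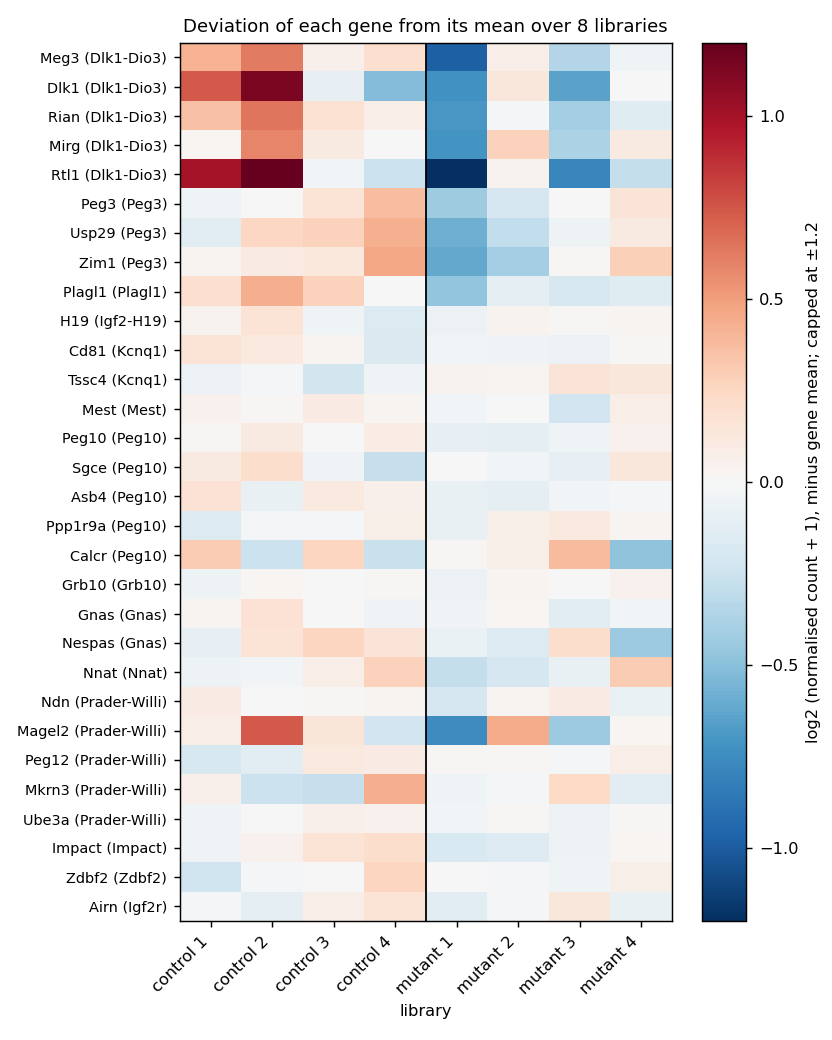
Deviation of each tested member in each library from its mean over the 8 libraries, on the log2 scale of normalised count + 1, red for higher and blue for lower, with colours capped at 1.2. The top 5 rows (Dlk1-Dio3) are highest in control 2 and lowest in mutant 1, and the 3 rows of the Peg3 cluster are highest in control 4 and lowest in mutant 1.

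Of 51 further imprinted genes, 49 were in the table and 38 were tested, and limma called 0 of them, edgeR 0 and DESeq2 1. At an unadjusted p under 0.05 by limma, 6 were lower and 2 higher, beside 5.17% and 3.53% of all genes. The median log2 fold change was -0.04. Cdkn1c, a cyclin-dependent kinase inhibitor that restrains growth, was at 8330.0, 9912, 9549 and 9066 in the controls and at 7133, 7492, 7475 and 8789.6 in the mutants. Only mutant 4 lay within the control range, and the log2 fold change was -0.26 (SE 0.067, limma adjusted p = 0.156). Cdkn1c passed by DESeq2 (adjusted p = 0.0148) and without mutant 4 (-0.32, limma adjusted p = 0.0265). Igf2, the fetal growth factor of the H19 cluster, was at 36443 to 38997 in controls and 32617 to 37987 in mutants, a log2 fold change of -0.10 (limma adjusted p = 0.531). Its clearance receptor gene Igf2r had a log2 fold change of -0.04 (limma adjusted p = 0.829). Kcnq1ot1, the noncoding RNA that silences the Kcnq1 cluster, had one of -0.06 with a 95% interval from -0.54 to 0.41.

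The other 4 lower genes at that threshold were Slc22a3, an organic cation transporter gene (-0.87, 23.0 ± 5.84 and 12.1 ± 2.68), Klf14, a Krüppel-like factor (-0.45, and -0.29 without control 2), Slc38a4, an amino acid transporter gene (-0.16, and -0.10 without mutant 1), and Gab1, a docking protein of growth factor receptors (-0.15). Slc22a3 and Gab1 did not overlap between the groups. Of all 38 tested genes of this list, 3 were lower without overlap, beside 3.00% of all genes. None was higher without overlap, beside 2.31%. The 2 genes that were higher at the unadjusted threshold were Dhcr7, of cholesterol synthesis (0.16), and H13, a signal peptide peptidase (0.10). Their limma adjusted p ranged from 0.245 to 0.572.

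None of the genes that set and keep imprints passed. Of 21 genes 19 were tested, and 0 were called by limma, edgeR or DESeq2. An unadjusted p under 0.05 was found for 1 by limma (8.70% of all genes), 0 by edgeR and 1 by DESeq2. Dnmt1, the maintenance DNA methyltransferase, was at 4452 to 4896 in controls and 4726 to 4955 in mutants (log2 fold change 0.08, SE 0.035, limma adjusted p = 0.549). Uhrf1, which brings it to replicating DNA, had the same log2 fold change of 0.08 (limma adjusted p = 0.582). Log2 fold changes were 0.03 for Trim28, the corepressor at imprinted regions (limma adjusted p = 0.915), and -0.13 for Zfp57, which directs it there (426 ± 41.6 and 389 ± 40.9, limma adjusted p = 0.784, and -0.06 without mutant 1). The within-group SD of this list had a median of 0.067 on the log2 scale.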

How the data were processed

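Poly(A)-selected RNA of whole kidneys was sequenced, with 500 ng of RNA going into each library, per the labels' protocols. TopHat2 2.0.12, HTSeq and DESeq2 1.4.5 with mm10 (GRCm38) are named in the submitters' processing notes. The annotation and strand setting are not spelled out in the sources used here. The deposited counts carry 'Unstr' in their name, which may stand for counting without strand. The deposited signal values are read counts per gene divided by 1 size factor per library. 100% of values were whole multiples of the smallest value of their library (within 0.01 read), so whole reads were recovered. The authors' fold change (ratio of group means), its log2 and their p-values are in the same deposited table.

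Values were tested as log2(normalised count + 1) for 13692 genes with a mean of at least 10, using R 4.3.3 and limma 3.58.1 with its mean-variance trend (genotype as the single term, two-sided, Benjamini-Hochberg at 0.05). As alternatives, DESeq2 1.42.0 and the quasi-likelihood test of edgeR 4.0.16 (TMM) were run on recovered reads. Others varied the pseudocount, filter, scaling, block, muscle score (mean of log2 values of 12 muscle genes) and libraries. The members and lists, the tests and the alternatives were chosen with earlier results of these data known. All members were named. Values in every library are given for members with a mean of at least 1000, an unadjusted p under 0.05 or groups that did not overlap, and were added for Mirg and Zim1 after their values were seen. From the other lists, genes with an unadjusted p under 0.05 and 8 fixed genes were named. Positions and sequences are from RefSeq GRCm38.p6, exon lengths and overlaps from GENCODE vM21, both matched for all 35 members. No pair of libraries within a group was as close as counting error alone would make it (chi-square divided by its degrees of freedom, 2.89 to 10.98). On simulated data for 13692 genes with 50 changed at each fold, limma recovered 44.0% at 1.25-fold and 60.0% at 1.5-fold. It recovered 82.0% at 2-fold and 100% at 4-fold between mutant and control, with 13 of 156 calls false. The real data gave 78 calls, and the members had a higher median within-group SD than all tested genes (0.157 and 0.110). These rates may therefore be too high for the members. Figures were drawn with matplotlib 3.10.9.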

Additional observations from a re-analysis of the deposited data

Results flagged for a closer look

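Among 60 groups of 4 libraries (30 tested members, controls and mutants apart), 1 held a library far from the other 3 by Dixon's criterion, where chance gives about 3. Mirg stood at 55.8 in control 2, against 36.7 to 39.7 in the other controls. Control 2 also held the most skeletal muscle RNA, and the part of that in the value was not tested.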

How the results depend on the processing

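The median log2 fold change of the tested members stayed negative in all 20 alternatives, from -0.1356 to -0.0848. No setting called a member as higher. The count of members called as lower went from 0 to 1 by DESeq2, to 2 without control 4 (0 to 2 over the fits that left out 1 library) and to 2 with the muscle score. With the sample number as a replicate block it was 3 (Plagl1, limma adjusted p = 0.00873; Peg3, 0.0092; Rian, 0.0114). Same-numbered libraries deviated together with correlations of 0.325, 0.287, 0.294 and 0.0635, and control 4 correlated best with mutant 3 (0.154), so the numbers were not taken as pairs. Of further imprinted genes, 1 was called by DESeq2, with the block and without mutant 4 (0 to 1 over these fits), each time Cdkn1c. Over all genes 78 were called, 214 by DESeq2, 232 with the block, 110 with the muscle score, 18 to 185 with 1 library left out (185 without control 4, 104 without mutant 4), 2 without both libraries numbered 2 and 29 without controls 1 and 2. Signs turned only for 10 genes with estimates near 0, and none of these was called. With 1 library left out, values ranged from -0.0435 to 0.0676 for H19, -0.0918 to 0.0712 for Sgce, -0.1414 to 0.1445 for Calcr, -0.0079 to 0.035 for Grb10, -0.0079 to 0.0944 for Peg12, -0.0715 to 0.1646 for Mkrn3, -0.0816 to 0.0839 for Zdbf2 and -0.2194 to 0.1198 for Kcnq1ot1. Without both libraries numbered 2 they were 0.0835 for Sgce, -0.0548 for Mkrn3 and 0.0017 for Zdbf2. Without controls 1 and 2 they were 0.1588 for Sgce, -0.0038 for Grb10, -0.0867 for Peg12, -0.0722 for Mkrn3, 0.0414 for Cd81 and -0.0291 for Trim28. With the muscle score they were 0.0401 for Sgce and -0.0397 for Mkrn3, which was -0.0132 by edgeR and -0.0126 by DESeq2. The cause of these differences was not tested. Snrpn, Ascl2, Nap1l5, Dio3 and Phlda2 had at most 16 reads per library and were not tested. With a filter at a mean of 50, Mirg, Rtl1, Calcr, Magel2, Nespas and Slc22a3 gave no value.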
